A study of Mus musculus with 13 samples.

Results

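The circadian clock genes described here are Nr1d1, Nr1d2, Dbp, Tef, Hlf, Per1, Per2, Per3, Arntl (now also called Bmal1) and Noct (earlier Ccrn4l). They were chosen by name, with earlier results of these data known. Each is read by 1 probe set that the platform annotation gives to that gene alone. All 10 of the 10 genes were thus measured, among 19938 genes in all. RNA came from femoral bone marrow of C57BL/6 males aged 6 weeks, and each of 13 samples was hybridised to its own Affymetrix Mouse Gene 1.0 ST array. The bled mice lost 500 µL by puncture behind the eye (phlebotomy, which raises the demand for red cells), and their marrow was taken afterwards at 4 h (1 array), 9 h (3 arrays), 12 h, 15 h or 48 h (2 arrays each), while 3 control arrays are the baseline. The labels give no hour of day for any sample and no sham puncture for the controls, and they do not say whether replicates are separate animals, so the spread behind the p-values may be a technical one.

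In nearly every mammalian cell the clock is a loop of transcription. BMAL1 (the product of Arntl) pairs with CLOCK and, through sites called E-boxes, switches on the Per genes, the nuclear receptors Nr1d1 and Nr1d2 (REV-ERB alpha and beta) and Dbp. The PER proteins, with the cryptochromes, then shut BMAL1 and CLOCK down, and the REV-ERBs repress Arntl, so that in many tissues Arntl peaks about opposite to Nr1d1 and Dbp. DBP, TEF and HLF bind D-boxes, sites also found in Per genes. In mouse marrow the release of blood stem cells follows the day, under sympathetic nerves that act on stromal cells. The question put to these data was whether the courses of the clock genes follow the time of day or the loss of blood.

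The titles number the samples in 2 runs, a smaller series of 3 arrays, which holds replicate 3 of the controls with replicates 1 and 2 of 9 h, and a larger series with the other 10 arrays, from control replicates 1 and 2 to 48 h. Array medians were 6.98 to 7.03 in the larger series and 7.77 to 7.8 in the smaller on the log2 scale. Levels are therefore described within a series only. The fit uses all arrays with a term for the series and takes the 9 h difference as the same in both series. The smaller series thus also shifts the fitted differences from control at other times. For Per1 at 4 h the fit gave −0.33, and the larger series itself −0.22. Values repeat often in the smaller series: for 75.6% of genes 2 or all 3 arrays held an identical value, and for 4 of the 10 clock genes (Nr1d2, Per2, Arntl and Noct). Identical values can lower the spread that the fit estimates, so SEs and p-values may be too small, and this was not tested.

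Marrow was checked by markers, given as the log2 of the summed level on the arrays of the larger series. The sum of 11 of 12 marrow markers (myeloid, red cell, B cell and platelet lineage) lay between 15.327 and 15.521 on every array. It is led by the brightest markers and does not show the mix of lineages. The red cell markers Epor (9.351 and 9.975) and Gata1 (9.687 and 10.099) differed between the controls themselves. None of the 11 passed against control at any time by limma. The 12 small intestine markers summed to 14.201 at 4 h, against 10.161 and 10.307 in the controls and 9.357 to 9.492 at later times. Their median difference from control was 4.15 at 4 h. By limma 3, 3, 4 and 4 of the 12 were called lower than control at 9, 12, 15 and 48 h, so the controls also stood above the later arrays. The 10 liver markers summed to 9.613 and 9.712 in the controls, 12.307 at 4 h and 12.065 and 12.408 at 48 h, and albumin (Alb) itself was 7.13 at 4 h but 11.7 and 11.4 at 48 h, against 6.87 and 7.23 in the controls. At 4 h 2 of the 10 liver markers rose and at 48 h 8 of them. Apoa1 and Cps1, which the small intestine also makes, were 12.1 and 7.67 at 4 h, against 7.85 and 7.65 for Apoa1 and 5.82 and 5.96 for Cps1 in the controls. The 10 muscle markers summed to 13.649 at 4 h, 12.511 on 9 h replicate 3 and 10.625 and 12.794 at 48 h, against 11.641 and 11.764 in the controls. The 9 of 10 measured markers of stroma and bone summed to 15.007 and 15.535 in the controls, 14.134 on 9 h replicate 3, and 14.44 and 14.857 at 48 h. The 5 fat markers summed to 10.569 and 11.593 in the controls, with 10.371 on 9 h replicate 3 and 10.077 and 10.775 at 48 h. In the smaller series the sums were 16.05 in the control and 15.984 and 15.993 at 9 h for marrow, 10.821 and then 10.172 and 10.18 for small intestine, and 15.747 and then 15.613 and 15.734 for stroma and bone. There muscle summed to 12.857 in the control and 11.476 and 12.381 on 9 h replicates 1 and 2, and liver to 10.297 and then 10.831 and 10.082, with Alb at 7.74 in the control and 9.68 and 7.31 at 9 h. No marker is at 0 on this scale, which has no true zero. Clock genes are used in many tissues, so these shifts accompany the values below, and their part in them was not tested. In a bulk sample fewer cells of a type and less RNA per cell cannot be told apart.

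**Figure D1:**
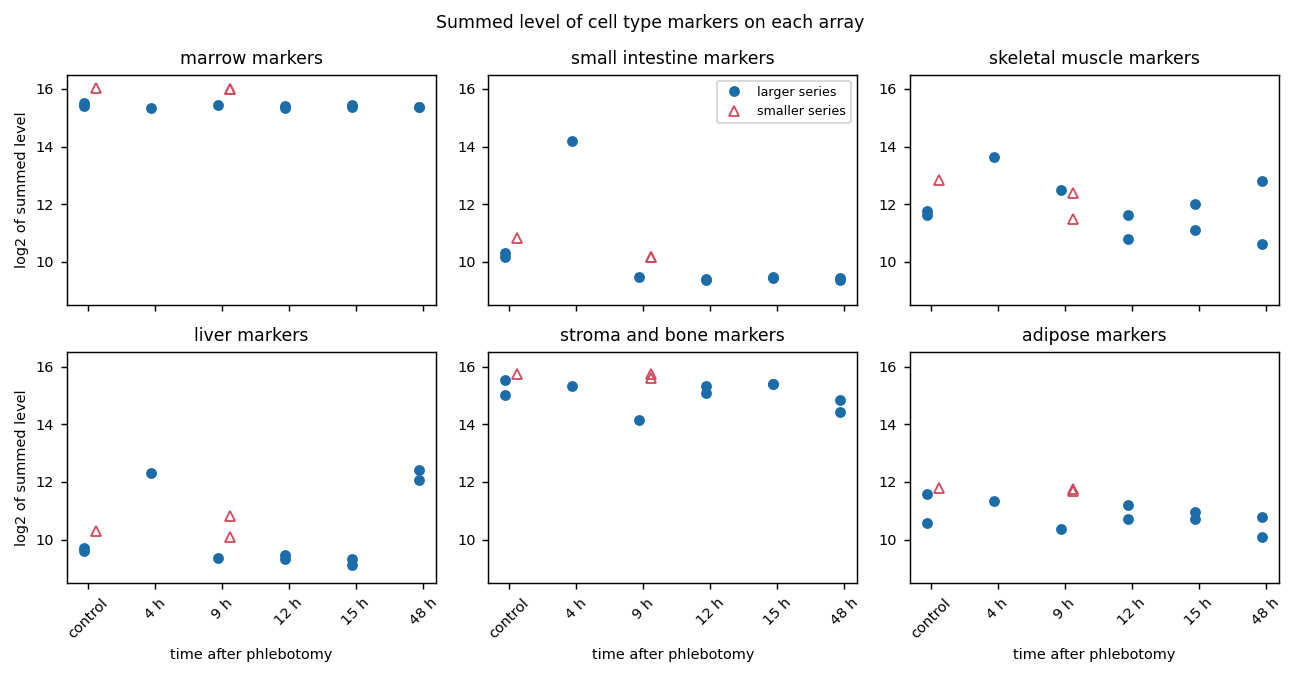
Each point is 1 array, and the vertical axis is the log2 of the summed level of the markers of 1 tissue, for controls and each time after phlebotomy in the larger series (filled circles) and the smaller series (open triangles). The marrow sum is level in the larger series (15.327 to 15.521), the small intestine sum stands at 14.201 on the 4 h array, and the liver sum is above 12 at 4 h and 48 h.

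Sites of the clock's own factors were looked for in RefSeq promoters, 250 bases before to 50 after each start (assembly GRCm38.p6), of which there are 12 for 9 of the genes, Per2 being named only. The 4 windows below are shown because they hold matches to motifs that the clock's own factors are known to bind. The capitals mark the E-box CACGTG, which BMAL1 and CLOCK bind, in Per1 and Tef, the D-box TTATGTAA, which DBP, TEF and HLF bind, in Per3, and the ROR and REV-ERB response element in Arntl. Each is written 5′ to 3′ on the strand of its gene.
Per1, chr11:69098753-69098812, plus strand: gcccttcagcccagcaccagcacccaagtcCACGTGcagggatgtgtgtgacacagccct
Tef, chr15:81802516-81802575, plus strand: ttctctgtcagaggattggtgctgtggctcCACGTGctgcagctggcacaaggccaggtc
Per3, chr4:151044796-151044885, minus strand: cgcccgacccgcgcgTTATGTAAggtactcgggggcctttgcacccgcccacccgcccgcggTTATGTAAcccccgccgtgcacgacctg
Arntl, chr7:113207527-113207556, plus strand: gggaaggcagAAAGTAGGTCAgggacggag

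Positions count from the start of the RefSeq promoter entry, which can lie inside the gene, as for Per1 and Arntl. The E-box in the Per1 window begins 166 bases before that start, and the one in the Tef window 127 before, with a second Tef promoter holding an E-box 138 bases before its own start. The Per3 window holds the D-box in 2 copies, 205 and 158 bases before the start. The Arntl element begins 27 bases after its start. Both strands of all 32851 promoters were searched, and none of these motifs overlaps another in the windows shown. The E-box was in 7.15% of promoters, the D-box TTATGTAA in 0.938%, a second D-box form, TTACGTAA, in 0.119% and in none of the clock genes, and the ROR and REV-ERB response element in 0.384%. Of the 9 clock genes searched, the E-box was in 2 (Per1 and Tef), the D-box TTATGTAA in 1 (Per3) and the response element in 1 (Arntl). The promoters of Nr1d1, Nr1d2, Dbp, Hlf and Noct held none of these motifs, and that of Per3 no E-box. A match is a run of letters and not a shown site, and these arrays measured no binding.

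Nr1d1 (chromosome 11, 98767932 to 98775377, GRCm38.p6) encodes REV-ERB alpha, the repressor of Arntl. Its deposited log2 levels in the larger series were 9.14 and 8.85 in the controls, 9.17 at 4 h, 7.65 at 9 h, 8.61 and 8.41 at 12 h, 8.86 and 9.24 at 15 h, and 8.72 and 8.73 at 48 h. In the smaller series they were 9.77 in the control and 8.93 and 8.87 at 9 h. Every 9 h array was thus below every control of its own series, the 12 h and 48 h arrays were below both controls by less, and 15 h overlapped the controls.

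Nr1d1 fell at 9 h by 1.11 ± 0.14 (SE) on the log2 scale, a 2.15-fold lower level (limma, adjusted p = 0.0150). The 9 h difference within the larger series was −1.34, on 1 array of 9 h, and within the smaller −0.87, on 2, and the fitted gap between them was 0.48 ± 0.24 (adjusted p = 0.829). The call was lost without 9 h replicate 3 (−0.87, adjusted p = 0.985), which is also the array with the low stroma and bone sum, and without control replicate 2 (−1.13, adjusted p = 0.0656). At 12 h the difference from control was −0.41 ± 0.15 (adjusted p = 0.280), at 15 h 0.13 ± 0.15, at 4 h 0.25 ± 0.19 and at 48 h −0.19 ± 0.15, none of which passed.

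Nr1d2 (chromosome 14, 18204056 to 18239106) encodes REV-ERB beta, which shares the targets of REV-ERB alpha. Its levels in the larger series were 8.87 and 8.32 in the controls, 8.90 at 4 h, 7.56 at 9 h, 8.17 and 7.89 at 12 h, 8.27 and 8.32 at 15 h, and 8.21 and 8.17 at 48 h, and in the smaller 8.95 in the control and 8.35 on both 9 h arrays. Like Nr1d1 it was lowest at 9 h in the larger series, but the controls there are 0.55 apart. Against control it differed at 9 h by −0.82 ± 0.15 and did not pass (adjusted p = 0.124). Without control replicate 1 that difference was −0.67 and passed (adjusted p = 0.0373), as did 0.63 at 4 h (adjusted p = 0.0195). With all controls kept and the series as a random block the 9 h difference also passed (−0.82, adjusted p = 0.0221). Differences at 12 h (−0.50 ± 0.16), 15 h (−0.23 ± 0.16) and 48 h (−0.33 ± 0.16) did not pass.

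Both receptors were lower at 9 h than at 4 h. Nr1d1 fell by 1.36 ± 0.20 (2.56-fold, adjusted p = 0.00375), and Nr1d2 fell by 1.20 ± 0.22 (2.29-fold, adjusted p = 0.0169). They are the 2 of the 10 clock genes called in this contrast, in which 1.65% of all genes were called lower, and Dbp differed by −0.68 ± 0.15 (adjusted p = 0.0543). The contrast rests on the 4 h array, on which the small intestine and muscle sums are high. Both calls were lost without 9 h replicate 3, at −1.04 for Nr1d1 (adjusted p = 0.145) and −0.91 for Nr1d2 (adjusted p = 0.453). From 9 h to 12 h Nr1d1 differed by 0.70 ± 0.17 (adjusted p = 0.408) and from 12 h to 15 h by 0.54 ± 0.16 (adjusted p = 0.894).

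Dbp (chromosome 7, 45705100 to 45710203), Tef (chromosome 15, 81802673 to 81826863) and Hlf (chromosome 11, 90336535 to 90390917) encode the PAR bZIP factors, which carry the clock's phase to enzymes and transporters through D-boxes. Dbp levels in the larger series were 8.35 and 8.17 in the controls, 8.21 at 4 h, 7.43 at 9 h, 7.68 and 7.57 at 12 h, 7.55 and 7.76 at 15 h, and 7.93 and 7.78 at 48 h. The smaller series had 8.95 in the control and 8.51 and 8.35 at 9 h. Every array from 9 h on was below the controls of its series, and the 4 h array lay between them. Dbp fell at 9 h by 0.67 ± 0.10, a 1.59-fold lower level (adjusted p = 0.0474).

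That Dbp call is close to the threshold and passed in 2 of the 13 fits that left out an array, those without control replicate 3 (adjusted p = 0.0459) and without the 4 h array, whose removal leaves this contrast as it was (0.0474). The other 11 fits gave adjusted p from 0.0539 to 1.0, the last without 9 h replicate 3, at −0.52. At 12 h Dbp differed from control by −0.58 ± 0.11 (adjusted p = 0.0831), at 15 h by −0.55 ± 0.11 (adjusted p = 0.102) and at 48 h by −0.35 ± 0.11 (adjusted p = 0.201), with 0.01 ± 0.14 at 4 h.

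Tef and Hlf, dimmer on the arrays, moved less. Tef was 7.61 and 7.40 in the controls of the larger series, 7.55 at 4 h, 7.16 at 9 h, 7.10 and 7.18 at 12 h, 7.23 and 7.28 at 15 h, and 7.30 and 7.24 at 48 h. Hlf was 7.40 and 7.19 in the same controls, 7.31 at 4 h, 7.18 at 9 h, 7.10 and 6.92 at 12 h, 7.14 and 7.08 at 15 h, and 7.40 and 7.04 at 48 h. Tef lay below both controls on every array of the larger series from 9 h on, while Hlf at 48 h reached the higher control on 1 array.

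In the smaller series Tef was 8.25 in the control and 8.24 and 8.19 at 9 h, and Hlf 8.16, 8.12 and 8.11, so neither moved there by more than 0.06. The lowest fitted differences from control were at 12 h, −0.32 ± 0.10 for Tef (adjusted p = 0.212) and −0.27 ± 0.11 for Hlf (adjusted p = 0.333), and neither gene passed at any time.

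The Per genes encode the proteins that close the loop. Per1 (chromosome 11, 69095108 to 69109965), which also answers directly to glucocorticoids and other signals, was 7.90 and 7.82 in the controls of the larger series, 7.63 at 4 h, 8.58 at 9 h, 7.89 and 7.66 at 12 h, 8.10 and 8.45 at 15 h, and 7.57 and 7.86 at 48 h. The smaller series had 8.75 in the control and 8.62 and 9.02 at 9 h. It was thus high at 9 h and 15 h and not at 12 h in the larger series, while the 9 h arrays of the smaller series lie on either side of their control.

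The 9 h difference of Per1 was 0.72 within the larger series and 0.07 within the smaller, with a gap of 0.66 ± 0.29 in size (unadjusted p = 0.0488, adjusted p = 0.814). In the fit of all arrays it was 0.40 ± 0.17 at 9 h (adjusted p = 0.806), −0.19 ± 0.19 at 12 h and 0.30 ± 0.19 at 15 h. Steps between times were −0.59 ± 0.21 from 9 h to 12 h, 0.50 ± 0.20 from 12 h to 15 h and −0.56 ± 0.20 from 15 h to 48 h, each past an unadjusted p of 0.05 and none past the adjusted threshold.

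Per2 (chromosome 1, 91415977 to 91459351) was 7.80 and 7.77 in the controls of the larger series, 8.04 at 4 h, 7.84 at 9 h, 7.48 and 7.50 at 12 h, 7.65 and 7.59 at 15 h, and 7.72 and 7.56 at 48 h, with 8.39 in the control and 8.43 and 8.39 at 9 h in the smaller. It was highest at 4 h and lowest at 12 h, and the groups of 12, 15 and 48 h did not overlap the controls. Its differences were 0.25 ± 0.09 at 4 h (adjusted p = 0.226), 0.04 ± 0.07 at 9 h, −0.30 ± 0.07 at 12 h (adjusted p = 0.139), −0.17 ± 0.07 at 15 h and −0.15 ± 0.07 at 48 h, none of which passed.

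Per3 (chromosome 4, 150997018 to 151044707), the gene with the pair of D-boxes above, was 7.75 and 7.45 in the controls of the larger series, 7.77 at 4 h, 7.26 at 9 h, 7.27 and 7.23 at 12 h, 7.41 and 7.19 at 15 h, and 7.32 and 7.43 at 48 h. In the smaller series it was 8.11 in the control and 7.96 and 7.92 at 9 h. From 9 h on, every array was below the controls of its series, as for Dbp, by less. The differences ran from −0.32 ± 0.11 at 12 h (adjusted p = 0.247) to −0.20 ± 0.11 at 48 h after 0.19 ± 0.13 at 4 h, and none passed.

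Arntl (chromosome 7, 113178471 to 113314126), the driver of the loop, was 7.69 and 7.64 in the controls of the larger series, 7.71 at 4 h, 8.11 at 9 h, 7.95 and 7.77 at 12 h, 7.78 and 8.07 at 15 h, and 7.54 and 7.62 at 48 h. The smaller series had 8.57 in the control and 8.57 and 8.69 at 9 h. In the larger series it was above both controls from 9 h to 15 h and below both at 48 h. Dbp, Tef, Hlf and Per3 were below both controls from 9 h to 15 h. Nr1d1 and Nr1d2 were below them at 9 h and 12 h but overlapped them at 15 h. Per2 was above them at 9 h and below at 12 h and 15 h. Noct was above them from 9 h to 15 h, as was Per1 at 9 h and 15 h. The 9 h difference of Arntl was 0.45 within the larger series and 0.06 within the smaller.

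No difference of Arntl passed the test. They were −0.02 ± 0.15 at 4 h, 0.25 ± 0.11 at 9 h (adjusted p = 0.806), 0.13 ± 0.12 at 12 h, 0.20 ± 0.12 at 15 h and −0.15 ± 0.12 at 48 h. Between 48 h and the mean of 12 h and 15 h Arntl differed by −0.31 ± 0.11 (adjusted p = 0.158).

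Noct (chromosome 3, 51224447 to 51251654) encodes nocturnin, a phosphatase of NADP(H) from the family of the CCR4 deadenylases, whose transcript cycles in several mouse tissues and also rises with other stimuli. Its levels in the larger series were 8.74 and 9.28 in the controls, 9.76 at 4 h, 10.22 at 9 h, 9.67 and 10.02 at 12 h, 10.16 and 9.84 at 15 h, and 9.65 and 9.53 at 48 h, and in the smaller 9.30 in the control and 10.44 on both 9 h arrays. Every array after phlebotomy was above every control of its series, including those at 48 h. The share of all genes with that pattern was not computed, and at 48 h alone 24.2% of all genes were above both controls of the larger series.

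Noct rose at 9 h by 1.17 ± 0.15, or 2.25-fold (adjusted p = 0.0171), by 1.21 within the larger series and 1.14 within the smaller. It rose at 15 h by 0.97 ± 0.16, or 1.96-fold (adjusted p = 0.0468). The differences at 4 h (0.74 ± 0.20, adjusted p = 0.114), 12 h (0.82 ± 0.16, adjusted p = 0.0863) and 48 h (0.57 ± 0.16, adjusted p = 0.174) did not pass.

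The 9 h call of Noct did not hold when control replicate 3 was left out (1.21, adjusted p = 0.0614), nor without 9 h replicate 1 (1.18, adjusted p = 0.0530) or 9 h replicate 3 (1.14, adjusted p = 0.985). The 15 h call passed in 2 of 13 fits that left out an array, those without control replicate 1 (0.77, adjusted p = 0.0325) and without the 4 h array, and the others gave adjusted p from 0.0610 to 0.190.

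**Figure D2:**
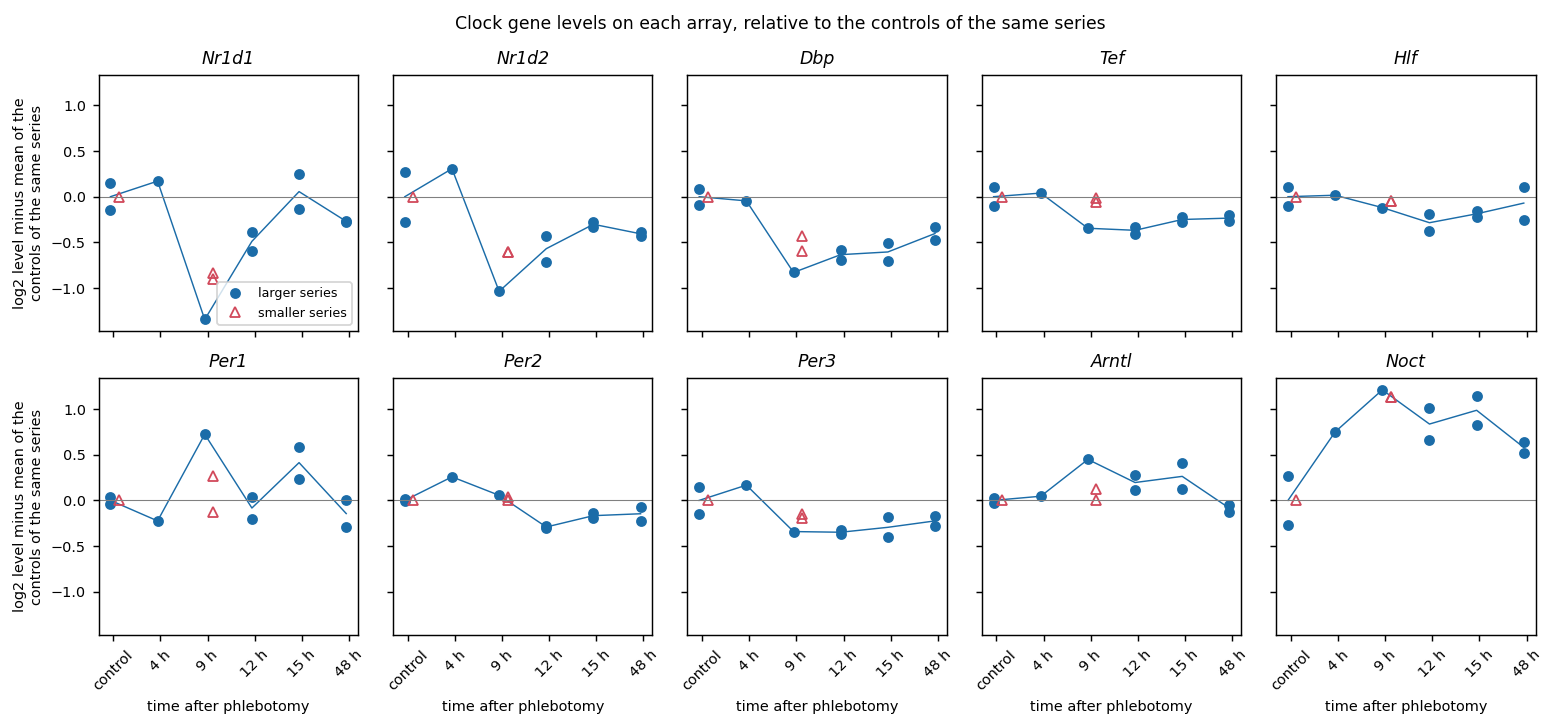
Each panel is 1 clock gene and each point 1 array, with the vertical axis the log2 level minus the mean of the controls of the same series and the horizontal axis the time after phlebotomy, not to scale. Filled circles are the larger series, joined by a line through group means, and open triangles the smaller. Nr1d1 reaches −1.34 at 9 h in the larger series and −0.84 and −0.90 in the smaller, while Noct is above 0 on every array after phlebotomy.

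Counted over the 10 clock genes, 3 passed at 9 h (Noct higher, Nr1d1 and Dbp lower), where 0.0502% of all genes were called higher and 0.0451% lower. At 15 h 1 passed (Noct higher), against 0.211% of all genes called higher. None passed at 4 h, 12 h or 48 h by limma, where 1.99%, 0.105% and 0.376% of all genes did in either direction. At an unadjusted p under 0.05 there were 2 of 10 at 4 h (15.2% of all genes), 7 at 9 h (6.12%), 8 at 12 h (13.7%), 4 at 15 h (12.5%) and 2 at 48 h (14%). Between times, from 9 h to 12 h and from 12 h to 15 h, 0% of genes were called in either step. At an unadjusted p under 0.05 there were 3 of 10 clock genes in the first (11.2% of all genes) and 2 in the second (5.29%). The contrast of 9 h with 4 h had 5 at that level (14%). The 10 genes were chosen with earlier results of these data known, so their counts beside the shares of all genes are a description.

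**Figure D3:**
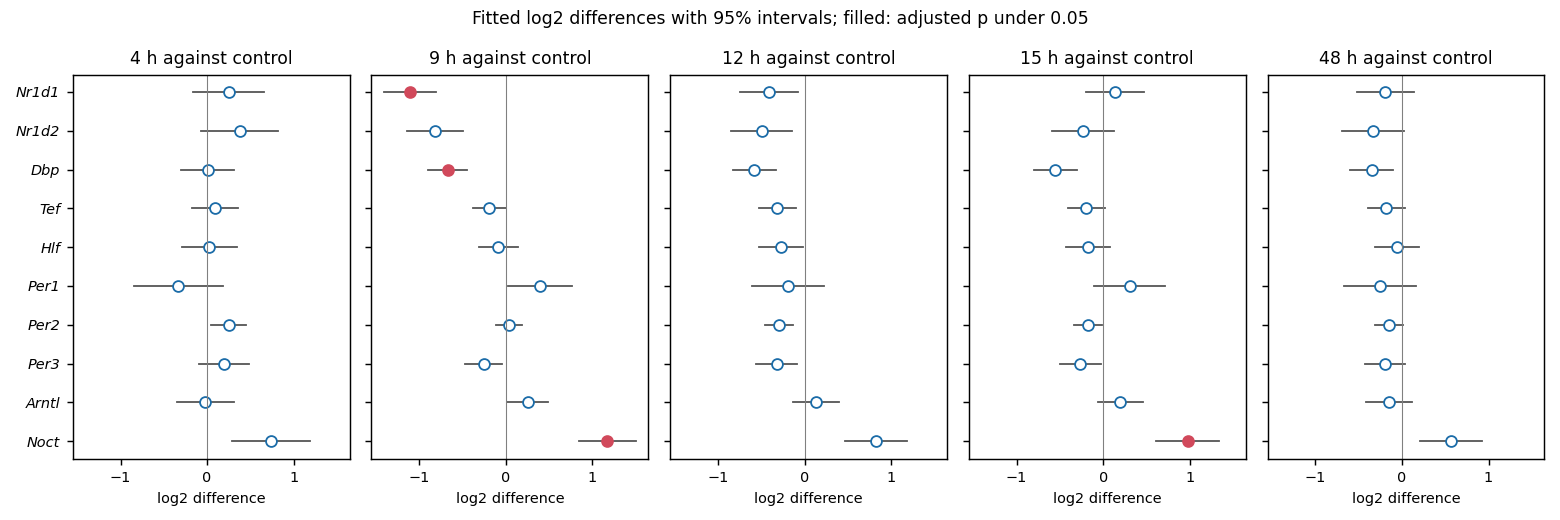
Points are the fitted log2 differences from control of the 10 clock genes at each time, over all 13 arrays with a term for the series, and bars are 95% intervals. Filled points passed the adjusted threshold of 0.05, which are Nr1d1, Dbp and Noct at 9 h and Noct at 15 h. At 48 h the intervals of 8 of the 10 genes include 0.

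The size of the differences is given beside that of all genes, again as a description. For the 10 clock genes the median size of the difference from control, signs aside, was 0.222 at 4 h against 0.121 over all genes, 0.326 at 9 h against 0.068, 0.318 at 12 h against 0.098, 0.214 at 15 h against 0.095 and 0.194 at 48 h against 0.098. These comparisons share the same controls, so a high or low control moves all of them together. With signs the medians of the 10 were 0.143, −0.137, −0.307, −0.175 and −0.187 in that order of times, where those of all genes were between −0.008 and 0.013.

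In the larger series, both 12 h arrays were below both controls for 7 of the 10 genes (all but Per1, Arntl and Noct) and above both for 2 (Arntl and Noct), as were 20% and 20.1% of all genes. At 15 h this held for 5 lower (Dbp, Tef, Hlf, Per2, Per3) and 3 higher (Per1, Arntl, Noct), with 19.2% and 20.3% of all genes. At 48 h it held for 7 lower (Nr1d1, Nr1d2, Dbp, Tef, Per2, Per3, Arntl) and 1 higher (Noct), with 16% and 24.2%. The same 2 controls enter each count. No such share was computed for 4 h, for 9 h or for several times together. Where arrays of a single gene are said above to lie outside their controls, that is a description.

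A test of any difference among the 5 times and control passed for 4 of the 10 genes, where 2.24% of all genes passed. They were Nr1d1 (adjusted p = 0.00590), Noct (adjusted p = 0.00975), Dbp (adjusted p = 0.0155) and Nr1d2 (adjusted p = 0.0438), and Per2 was next (adjusted p = 0.0612). At an unadjusted p under 0.05 there were 8, all but Hlf and Arntl, against 19.4% of all genes. The Dbp call held in all 12 fits that left out 1 array of a group with more than 1, while Nr1d1 missed the threshold without 9 h replicate 3 (adjusted p = 0.0667) and Noct without control replicate 3 (adjusted p = 0.0662). The Nr1d2 call held in 2 of the 12, those without control replicate 1 (adjusted p = 0.00225) and without control replicate 2 (adjusted p = 0.0372), with the others from 0.0566 to 0.119.

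If all mice had been bled at 1 clock hour and the controls collected at that hour, 48 h would fall on the controls' clock hour. A 24 h rhythm would then bring every clock gene back to control at 48 h, but the labels state neither condition. Taken with these assumptions, no clock gene passed at 48 h. The 95% intervals of the 48 h difference reached from −0.52 to 0.14 for Nr1d1, −0.69 to 0.02 for Nr1d2, −0.60 to −0.10 for Dbp, −0.40 to 0.03 for Tef and −0.31 to 0.20 for Hlf. They reached from −0.67 to 0.16 for Per1, −0.31 to 0.01 for Per2, −0.43 to 0.04 for Per3, −0.41 to 0.11 for Arntl and 0.21 to 0.93 for Noct. The intervals of Dbp and Noct left out 0 before adjustment, and a miss of the threshold does not show that 48 h and control are alike.

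The size of the difference from control was smaller at 48 h than at 9 h for 9 of the 10 genes, than at 12 h for 8 and than at 15 h for 8. The share of all genes for which this held was not computed, and the counts share the controls and the 48 h arrays. At 48 h the fitted difference was above 0 for 1 of the 10 genes, against 53.5% of all genes. Against the mean of 12 h and 15 h, 48 h gave 0 called clock genes by limma, with 0.828% of all genes called. At an unadjusted p under 0.05 there were 2 (Arntl and Noct, both lower at 48 h), against 18.8% of all genes. Against 15 h alone there were 0 called, where 0.547% of all genes were, and 3 at an unadjusted p under 0.05 (Per1, Arntl and Noct, all lower at 48 h), against 16.6%. The liver markers stood high and those of stroma and bone low on the 48 h arrays, and their part in these values was not tested.

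A cosine of 24 h, with control and 48 h at hour 0, was then fitted to the array values with the series term and no group terms. Any departure of a group from the cosine thus adds to the spread against which the cosine is tested. None of the 10 clock genes passed by limma, where 0.0251% of all genes did, and 8 had an unadjusted p under 0.05 (all but Hlf and Per1), against 9.88% of all genes. The fitted peaks, as a description, were at 19.86 ± 0.84 h for Nr1d1 (amplitude 0.562), 22.35 ± 2.27 h for Nr1d2 (0.28), 0.11 ± 1.54 h for Dbp (0.271), 1.92 ± 2.25 h for Tef (0.117), 2.49 ± 2.1 h for Hlf (0.114) and 2.49 ± 1.77 h for Per3 (0.162). Per2 peaked at 4.83 ± 0.78 h (0.208), Noct at 10.06 ± 1.21 h (0.469), Arntl at 11.89 ± 2.18 h (0.139) and Per1 at 14.08 ± 3.33 h (0.173). Peaks of Dbp and Arntl were thus 11.8 h apart, with no SE computed for that gap. The peak of Nr1d1 lay nearer to that of Arntl than the peak of Dbp did. Peaks of Dbp and Arntl were at 0.35 h and 10.81 h in the larger series alone. They were at 1.25 h and 10.76 h with the controls left out, and at 23.99 h and 11.96 h with 48 h left out. Peaks of the REV-ERBs came before, and of Tef, Hlf and Per3 after, that of Dbp. All these peaks are hours after phlebotomy. They are phases of the day only if all mice were bled at 1 clock hour and the controls collected then, which the labels do not say.

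**Figure D4:**
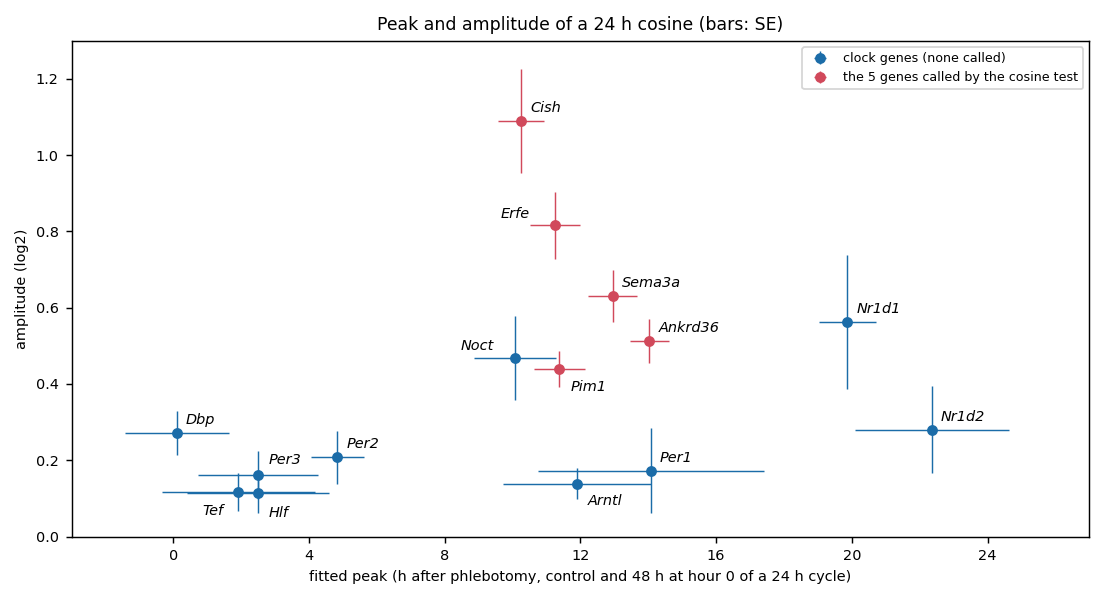
Points give the fitted peak of a 24 h cosine (horizontal axis, in hours after phlebotomy) and its amplitude (vertical axis, log2), with bars of 1 SE, for the 10 clock genes and the 5 genes that passed the cosine test. None of the clock genes passed. Dbp, Tef, Hlf and Per3 lie between 0.11 and 2.49 h, and Noct and Arntl lie at 10.06 and 11.89 h, beside the hours of Cish, Erfe and Pim1.

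No time between 15 h and 48 h was sampled, so no array lies in the hours where Nr1d1 and Nr1d2 were fitted to peak. Nr1d1 also departed from the cosine (adjusted p = 0.0435), as 1 of the 10 clock genes and 1.72% of all genes did, and 6 of the 10 had an unadjusted p under 0.05 for this departure, against 17.6%. That call was lost without the 4 h array (adjusted p = 0.635), when the cosine of Nr1d1 itself passed with an amplitude of 0.92 (adjusted p = 0.0175). It held only without control replicate 1, control replicate 3 or 15 h replicate 1, with adjusted p from 0.0563 to 0.635 in the other fits. Dbp passed the cosine with the 48 h arrays left out (peak 23.99 h, amplitude 0.352, adjusted p = 0.0376).

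The 5 genes that passed the cosine test, named after their values were seen, were Cish (peak 10.25 h, amplitude 1.09), Erfe (11.25 h, 0.816), Pim1 (11.38 h, 0.439), Sema3a (12.95 h, 0.631) and Ankrd36 (14.03 h, 0.513). Cish, a feedback inhibitor of cytokine signalling, Erfe, the hormone erythroferrone, and Pim1, a kinase, are known targets of erythropoietin and STAT5, the signal that follows loss of blood. These 3 targets rose most between 9 h and 15 h, were smaller by 48 h and passed the 24 h cosine, while Noct, with a rise of like timing, did not (adjusted p = 0.317). A daily rhythm and a single wave after phlebotomy cannot be told apart by this fit.

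The courses of these targets beside Noct were as follows. Erfe differed from control by 0.81, 1.86, 1.43, 1.72 and 0.49 at 4, 9, 12, 15 and 48 h, Cish by 1.43, 2.40, 1.77, 1.94 and 0.54, and Noct by 0.74, 1.17, 0.82, 0.97 and 0.57. Of 7 measured genes of that list 3 rose at each time from 4 h to 15 h and 1 at 48 h (Erfe, adjusted p = 0.0387), and 4 were lower at 48 h than at 12 h and 15 h. These comparisons share the control arrays, and no gene passed between 12 h and 15 h.

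Other parts of the clock, from a list of 14 genes of which 11 were measured, showed 0 calls at any time against control by limma. The median difference of the list was 0.116 at 4 h, −0.026 at 9 h, −0.040 at 12 h, 0.020 at 15 h and −0.069 at 48 h, beside −0.003, 0.012, −0.008, −0.007 and 0.013 over all genes. Clock, the partner of BMAL1, differed by −0.03 at 9 h and 0.19 at 12 h, and the cryptochromes Cry1 and Cry2, partners of the PER proteins, by 0.09 and −0.04 at 9 h. Ciart, a repressor that cycles with Dbp in other mouse tissues, differed by −0.25 at 9 h and −0.49 at 12 h (adjusted p = 0.221). Nfil3, which competes with the PAR bZIP factors for D-boxes, differed by 0.30 at 9 h (adjusted p = 0.693), and the repressors Bhlhe40 and Bhlhe41 by −0.11 and −0.23.

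Lists that could move with the clock or with stress were read in the same way. Of 6 measured clock outputs of many tissues 0 were called at any time, with medians from −0.116 at 48 h to 0.129 at 4 h. Of 12 glucocorticoid response genes, Per1 among them, 1 rose, Mt1 (metallothionein 1) at 15 h by 0.64 (adjusted p = 0.0346), and the medians were 0.329, 0.211, 0.149, 0.199 and −0.073 from 4 h to 48 h. Of 5 measured genes of marrow homing 0 were called. Cxcl12, the chemokine that holds stem cells in marrow and follows the day in mouse stroma, differed by −0.24 at 9 h and −0.39 at 48 h (adjusted p = 0.265).

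Among the clock genes themselves, the levels on the 10 arrays of the larger series went together most for Dbp and Tef (Pearson r = 0.919), Tef and Per3 (0.886), Nr1d1 and Nr1d2 (0.873), Nr1d2 and Tef (0.864), Nr1d2 and Dbp (0.861) and Per1 and Arntl (0.845). Dbp ran opposite to Noct (−0.842) and to Arntl (−0.584), and Nr1d1 to Arntl with −0.385. These are descriptions over 10 arrays in 6 groups that share groups and tissue content, with no test.

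Of 981 genes that ranged over at least 1 log2 unit on those arrays, the closest to Nr1d1 were Klk1b11 (0.933), Plekhh2 (0.925), Hoxc10 (0.921), Bmp4 (0.877) and Nr1d2. The closest to Arntl were Klra17 (0.887), Rasgrp3 (0.879), Dhrs9 (0.861), Ccr1 (0.846) and Per1. The closest to Noct were Trim15 (0.937), Clca3a1 (0.933), Osm (0.929), Cish (0.925) and Clca3a2 (0.925). Of these 5, Osm and Cish are on the list of erythropoietin and STAT5 targets, which was written with earlier results of these data known. The range limit favours genes that moved on these same arrays, and of the clock genes only Nr1d1, Nr1d2, Per1 and Noct reach it. The share of listed genes among the 981 was not computed, so the overlap is a description.

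By level, Noct was the brightest of the 10 on these arrays, with a mean of 9.69 in the larger series, above 85.7% of genes, and Hlf the dimmest at 7.18, above 47.6%. Probe sets differ in how brightly they read, so these places say how far a signal stands within the array and give no order of transcript numbers between genes. Nr1d1 stood above 72.4% of genes, Nr1d2 above 65.0%, Per1 above 59.6%, Dbp above 57.8%, Arntl above 56.9%, Per2 above 55.6%, Per3 above 51.2% and Tef above 49.7%.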

How the data were processed

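RNA of 13 femoral marrow samples was read on 1-colour Affymetrix arrays. Per the submitters' processing notes, the authors used RMA for the deposited log2 values, and its version and the arrays normalized together are not given in the sources used here. Of 35557 probe sets 21789 have 1 symbol, 1621 several (not used) and 12147 none listed here. Symbols were updated through Entrez identifiers, and the probe set with the highest mean stood for a gene, leaving 19938.

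Groups come from the times in the labels, and replicate numbers pair nothing. limma 3.58.1 (R 4.3.3) was fitted to all 13 arrays with 6 groups and a series term (6 residual and 4.62 prior degrees of freedom), with Benjamini-Hochberg adjustment over 19938 genes and a threshold of 0.05. The 4 h group has 1 array, assumed to vary like the others. Tests were 10 contrasts, F tests over the 5 times, a 24 h cosine (fitted with the series term and no group terms) and the departure from it. On simulated data the fit recovered 82% of genes changed by log2 0.5 at 9 h, 66% at 12, 15 and 48 h and 38% at 4 h. From 9 h on, more genes were called there than in the real data, 204 against 19 at 9 h. More calls make the adjusted threshold easier to pass, so these shares are too high for the real data at those times. Precision is limited by how few arrays there are.

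The 10 genes and the lists were chosen with earlier results of these data known. All 10 genes are named. Of the lists, genes past the threshold were named, at most 4 per contrast, with 7 clock genes (Clock, Cry1, Cry2, Nfil3, Ciart, Bhlhe40, Bhlhe41), and for Nr1d1, Arntl and Noct the 5 genes of highest correlation. Erfe, Cish, Pim1, Cxcl12, Sema3a and Ankrd36 are given with values at times where they did not pass, or were chosen after their values were seen. Figures were drawn with matplotlib 3.10.9 (Python 3.11.15).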

Additional observations from a re-analysis of the deposited data

How the results depend on the processing

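Limits: 1 to 3 arrays a group, 1 array at 4 h, no array between 15 h and 48 h, no hour of day, and repeated values in the smaller series. No clock gene that had passed changed direction under any alternative. Of the values of single clock genes, 1251 kept their direction and side of the threshold under other ways of fitting, 30 no longer passed and 17 newly passed, while 12 values within 1 series at 9 h, which have no test, differed from the fitted value by more than its SE, and for fits that left out 1 array these were 1599, 51 and 10.

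Nr1d1 at 9 h passed in 7 of 10 other fits (not with no series term, array weights or the contrast's groups alone), Noct at 9 h in 7 (not with no series term, the larger series alone or the contrast's groups alone), Dbp at 9 h in 5 and Noct at 15 h in 3.

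Counts of the 10 clock genes that passed moved as follows. With no series term all counts were 0, from 3 at 9 h, 1 at 15 h, 2 for 9 h against 4 h, 4 in the F test and 1 for the departure from the cosine. With the series as a random block there were 4 at 9 h (Nr1d2 added), 2 at 12 h, 2 at 15 h, 3 for 9 h against 4 h, 5 in the F test and 2 for the departure. The larger series alone gave 1 at 9 h, 0 at 15 h and 2 in the F test. Testing every probe set, quantile normalization within a series and centring on the median each gave 0 at 15 h, and testing every probe set gave 2 at 9 h (Dbp lost, adjusted p = 0.0544). Leaving out dim genes gave 3 in the F test and 0 for the departure, and trend with robust moderation gave 3 for 9 h against 4 h. Array weights gave 2 at 4 h, 1 at 9 h, 0 at 15 h, 3 for 9 h against 4 h, 5 in the F test and 2 for the departure. The groups of the contrast alone gave 0 at 9 h, 0 at 15 h and 4 for 9 h against 4 h, with 1 residual degree of freedom in that last fit. With 48 h left out the cosine passed 1.

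Leaving out each array in turn gave 0 to 1 at 4 h, 0 to 3 at 9 h, 0 to 1 at 15 h, 0 to 4 for 9 h against 4 h, 2 to 5 in the F test, 0 to 1 for the cosine and 0 to 2 for the departure. Over all genes the counts ranged from 3 to 75 at 9 h (19 in the fit reported), 78 to 1852 at 4 h (397), 2 to 414 at 12 h (21), 5 to 505 at 15 h (51), 11 to 143 at 48 h (75), 71 to 12613 for 9 h against 4 h (361), 98 to 1971 in the F test (447), 0 to 35 for the cosine (5) and 44 to 1096 for the departure (343). The ranges were 11 to 1265 for 48 h against 12 h and 15 h (165), 8 to 875 for 48 h against 15 h (109), 0 to 153 for 12 h against 9 h (0) and 0 in every fit for 15 h against 12 h. No clock gene had a second probe set to try. The cause of each change was not tested. No paired analysis was possible because the labels number no replicates and the numbers used here only name arrays. The difference between the series at 9 h was added after the data were seen, and by limma 0 of 19938 genes passed, with 1215 at an unadjusted p under 0.05.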
